A study of Homo sapiens with 4 samples.

Results

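The transcripts described here are 33 genes that the transcription factor p53 switches on directly, chosen by name, among 62893 genes in the deposited tables. All 33 symbols matched 1 Ensembl identifier each, and all 33 were among the 13767 genes with enough reads to be tested. RNA sequencing was done on total RNA from Hep-G2, a human hepatoma-derived cell line, at passage 21. The scramble group carried the shRNA SHC002 and the shFTO group the shRNA TRCN0000246247 against FTO, an RNA demethylase, so each group rests on 1 hairpin. Whether the lines were clones or pools is not given in the labels. The design asks how transcript levels differ after FTO knockdown.

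Each group has 2 count tables, called runs here, with 20047409 to 20706611 gene-assigned reads per run. Before any comparison the runs of each group were set against each other. They differed by no more than sampling noise (chi-square per degree of freedom 1.019 over 13359 genes for scramble and 1.013 over 13674 genes for shFTO, chi-square test, p = 0.0648 and p = 0.142). Each pair was therefore summed and counted as 1 sample, so that 1 sample is compared with 1 sample, without a replicate check. Levels are given in CPM, that is, reads divided by the TMM-scaled library size. FTO reads numbered 594 and 550 in scramble against 116 and 128 in shFTO, 5.32-fold lower after summing. All 10 hepatocyte markers, albumin among them, were detected, and all 10 were lower in shFTO, with a median log2 ratio of -1.59. Of 18 markers of fibroblasts, endothelium and blood, 8 had no read in any run. Among those at 0 were DCN, LUM, COL3A1, PECAM1 and PTPRC. Of the 18, 4 had enough reads to be tested. Lysozyme, LYZ, had 56696 and 58080 reads in scramble and 4968 and 5084 in shFTO. ACTA2 had 637 and 603 against 796 and 714, EGFL7 47 and 56 against 32 and 25, and CD79A 11 and 9 against 32 and 36. The part of these differences in the p53 target values was not tested.

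p53 is held at a low level by MDM2, a ubiquitin ligase that is itself a p53 target, so the pathway contains its own brake. After DNA damage or other stress p53 accumulates and activates genes for cell cycle arrest, cell death, DNA repair and metabolic adjustment. p53 binds a response element made of a pair of half-sites, each with a C and a G in its core, which the search below held fixed.

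The response element was searched in RefSeq promoter windows (GRCh38.p14, 250 bases before to 50 after an annotated start), which covered 27 of the 33 genes in 39 distinct windows. The search, named here by the element alone, allowed up to 13 bases between half-sites of 10 bases each. The half-site pattern is its own reverse complement, so both strands were covered. An exact pair occurred in 1 of 39 windows of the targets (2.56%) and in 10 of 34796 windows overall (0.0287%). With up to 2 mismatches outside the core C and G, 6 of 39 windows (15.4%) and 1021 of 34796 (2.93%) held one. The 6 windows belong to 5 genes because a pair of MDM2 windows overlaps. The genes are listed as p53 targets, so this difference in shares is no independent finding. A match is a description of letters, and the windows leave out distal and most intronic elements.

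A stretch of 250 bases is shown for MDM2 and FAS, as an example from the feedback loop and one from the death receptors, both with a match without a gap between half-sites and both at least 1.5-fold higher in shFTO. For AEN (1.08-fold higher), FDXR (1.80-fold higher) and DDB2 (1.18-fold lower) the matched site alone is shown. Capitals mark the half-sites of the best match, and pairs with a changed core C or G are left unmarked. The MDM2 stretch lies before its downstream start region (chr12:68808767-68809016, plus strand) with the site at positions -94 to -75 from the start. The FAS stretch (chr10:88991181-88991430, plus strand) has its site at -122 to -103. The AEN site is at chr15:88621306-88621325 (plus strand), the FDXR site at chr17:74872996-74873025 (minus strand) and the DDB2 site, the exact pair, at chr11:47214979-47214999 (plus strand), just inside the transcript.
MDM2: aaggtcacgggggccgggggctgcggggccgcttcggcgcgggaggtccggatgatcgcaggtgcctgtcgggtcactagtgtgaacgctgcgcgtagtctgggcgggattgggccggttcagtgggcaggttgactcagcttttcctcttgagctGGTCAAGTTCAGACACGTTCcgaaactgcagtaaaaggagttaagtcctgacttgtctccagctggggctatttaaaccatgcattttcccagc
FAS: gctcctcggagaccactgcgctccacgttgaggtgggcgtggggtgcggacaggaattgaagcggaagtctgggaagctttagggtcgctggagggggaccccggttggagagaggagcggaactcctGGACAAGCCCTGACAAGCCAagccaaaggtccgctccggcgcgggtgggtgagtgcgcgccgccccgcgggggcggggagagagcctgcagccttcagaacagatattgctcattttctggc
AEN: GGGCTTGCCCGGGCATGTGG
FDXR: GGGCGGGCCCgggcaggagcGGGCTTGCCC
DDB2: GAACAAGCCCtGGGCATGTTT

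More p53 targets were higher than lower in the FTO knockdown, mostly by less than 2-fold. MDM2, CDKN1A, ZMAT3, FDXR, PMAIP1, FAS, TIGAR and SPATA18 were higher by at least 1.5-fold, whereas GDF15 and PERP were lower by at least that much. With 1 sample a group, a gene counts as higher or lower here when the summed runs differ by at least 1.5-fold. The 8 higher genes are 24.2% of the 33, against 11.4% of all 13767 tested genes, and the 2 lower genes are 6.06%, against 13.4%. At a looser limit, a log2 ratio of 0.32 either way, the targets split into 15 higher and 4 lower, against 22.8% and 24% of all genes. At 2-fold under TMM scaling none was higher and 1, GDF15, was lower, against 5.18% and 6.19%. Upper quartile scaling and plain library size changed these 2-fold counts, as given below. The median log2 ratio of the 33 was 0.27, and that of all tested genes 0.01. The 33 genes were chosen with earlier results of these data known, so these contrasts are descriptions without a test.

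edgeR's quasi-likelihood test, fitted on all tested genes with a Benjamini-Hochberg adjusted p under 0.05, called 23 of the 33 higher and 6 lower. It called 33.2% and 33.4% of all tested genes higher and lower. Its spread comes from runs that agree within sampling noise, so a call speaks of these libraries alone. In 29 of the 33 targets the runs of the groups did not overlap, which was also true of 81.6% of all tested genes. The 4 targets whose runs overlapped were PLK3, SUSD6, TNFRSF10A and POLH.

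**Figure D1:**
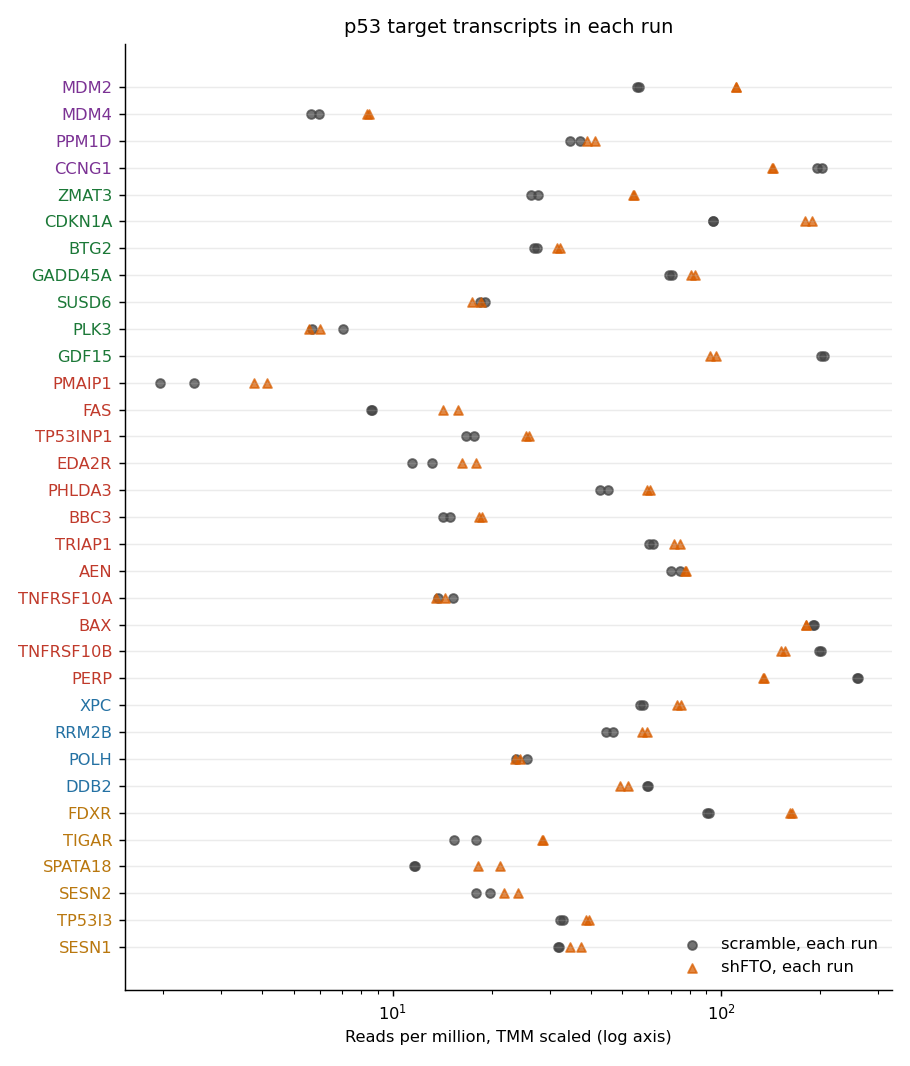
Level of each of the 33 p53 targets in CPM after TMM scaling (log axis) in each run, circles for the scramble runs and triangles for the shFTO runs, with gene names coloured by role. The runs of a group lie close together, and MDM2 sits at 55.3 and 56.3 in scramble against 111.0 and 110.5 in shFTO.

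Feedback genes. MDM2 reads numbered 1045 and 1088 in scramble against 2377 and 2427 in shFTO. Both shFTO runs lay above both scramble runs, and the summed level was 1.99-fold higher (95% counting interval 1.89 to 2.09). Intervals here and below are exact Clopper-Pearson intervals on the summed reads and cover counting error only. MDM4, the relative of MDM2 that blocks the activation domain of p53, had 113 and 109 against 179 and 186 reads and was 1.45-fold higher (1.22 to 1.72). PPM1D, the phosphatase that reverses damage signals on p53, had 656 and 718 against 883 and 855 reads and was 1.12-fold higher (1.04 to 1.20). Cyclin G1, CCNG1, which recruits a phosphatase to MDM2, went the other way, with 3689 and 3916 against 3042 and 3156 reads, 1.39-fold lower (1.35 to 1.44). Of these 4 genes only MDM2 passed 1.5-fold (25% higher), against 11.4% of all tested genes higher and 13.4% lower.

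Arrest and growth restraint. CDKN1A, which encodes the cyclin-dependent kinase inhibitor p21, had 1779 and 1821 reads in scramble and 3845 and 4147 in shFTO. The groups did not overlap, and CDKN1A was 1.96-fold higher (1.88 to 2.04). ZMAT3, an RNA-binding protein that acts on splicing, had 500 and 535 against 1153 and 1187 reads and was 1.99-fold higher (1.85 to 2.15). GDF15, a secreted stress cytokine, was the lowest of the 33 ratios, with 3787 and 3952 reads in scramble and 2056 and 2025 in shFTO. Its shFTO runs lay well below its scramble runs, and it was 2.15-fold lower (2.07 to 2.23).

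The other genes of arrest and growth restraint moved little. BTG2, an antiproliferative cofactor of mRNA deadenylation, had 510 and 531 against 679 and 707 reads and was 1.17-fold higher (1.08 to 1.27). GADD45A, a stress sensor that restrains the G2 kinase, was also 1.17-fold higher (1.11 to 1.23), with 1311 and 1363 against 1730 and 1827 reads. SUSD6, a membrane protein with growth-suppressing activity, had 362 and 357 against 374 and 408 reads, and the stress kinase gene PLK3 had 134 and 110 against 129 and 122. Their runs overlapped and both intervals spanned no difference, as SUSD6 was 1.04-fold lower (0.941 to 1.16) and PLK3 1.10-fold lower (0.921 to 1.32). The median log2 ratio of the 7 genes was 0.23. By at least 1.5-fold 2 were higher (28.6%) and 1 lower (14.3%), against 11.4% and 13.4% of all tested genes.

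Death genes of the mitochondrial route. BBC3, which encodes the BH3-only protein PUMA, had 269 and 289 against 392 and 411 reads and was 1.27-fold higher (1.14 to 1.42). PMAIP1, the BH3-only protein NOXA, had few reads, 37 and 48 against 89 and 83. Its shFTO runs were above its scramble runs, and it was 1.78-fold higher with a wide interval (1.37 to 2.34). The pore-forming effector BAX was abundant and nearly level, at 3591 and 3695 against 3866 and 3981 reads, or 190.5 against 180.9 CPM, 1.05-fold lower (1.02 to 1.09). TP53INP1, which promotes death and autophagy, had 316 and 342 against 558 and 558 reads. It lay just under the 1.5-fold limit, at 1.495-fold higher (1.36 to 1.65).

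Death genes at the cell surface differed among themselves. FAS, the receptor of Fas ligand, had 162 and 167 reads in scramble against 338 and 313 in shFTO and was 1.74-fold higher (1.53 to 2.0). The TRAIL receptor TNFRSF10B was 1.30-fold lower (1.26 to 1.34), with 3804 and 3835 against 3251 and 3421 reads. Its paralog TNFRSF10A had 260 and 294 against 291 and 317 reads, overlapping runs and a ratio 1.03-fold lower (0.920 to 1.16). Neither receptor of TRAIL was higher, unlike FAS. EDA2R, the receptor of ectodysplasin A2, had 216 and 255 against 347 and 393 reads and was 1.38-fold higher (1.23 to 1.56). PERP, a membrane protein of desmosomes that p53 induces during apoptosis, had the highest level in CPM of the 33 in scramble. It went from 4905 and 4994 reads to 2869 and 2967, with no overlap, and was 1.92-fold lower (1.86 to 1.99).

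The remaining 3 death genes were higher by smaller amounts. PHLDA3, a competitor of AKT for membrane lipids, had 809 and 876 against 1270 and 1334 reads and was 1.36-fold higher (1.28 to 1.45). TRIAP1, which opposes apoptosis, was 1.20-fold higher (1.14 to 1.27) from 1175 and 1161 against 1604 and 1577 reads. The nuclease gene AEN was 1.08-fold higher (1.02 to 1.13) from 1324 and 1442 against 1663 and 1718 reads. Over the 12 death genes the median log2 ratio was 0.30. By at least 1.5-fold 2 were higher (16.7%) and 1 lower (8.33%), against 11.4% and 13.4% of all tested genes.

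**Figure D2:**
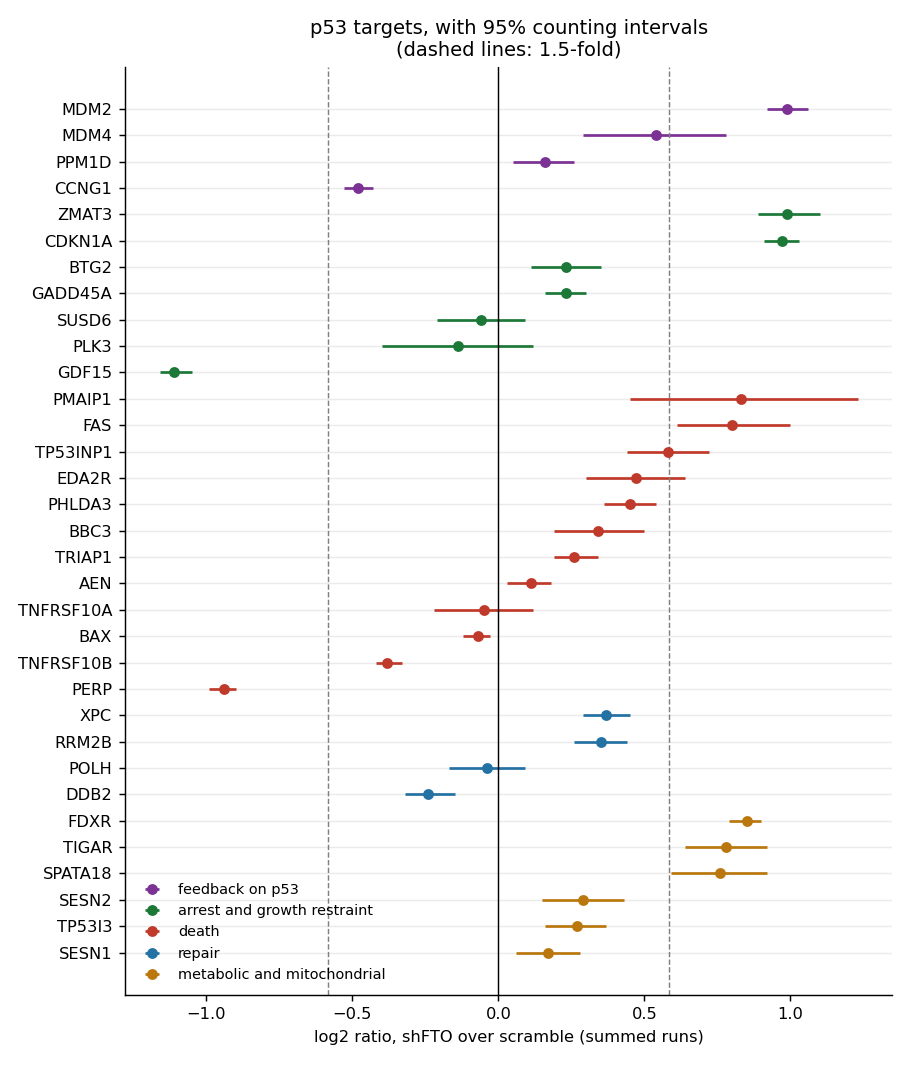
log2 ratio of shFTO over scramble for each p53 target from summed runs (horizontal axis), with bars for 95% counting intervals, dashed lines at 1.5-fold and colours for roles. Arrest and death genes both spread to either side of 0, from -1.11 (GDF15) to 0.99 (ZMAT3) and from -0.94 (PERP) to 0.83 (PMAIP1), while the 6 metabolic genes all lie above 0.

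None of the 4 repair genes passed 1.5-fold, against 11.4% of all tested genes higher and 13.4% lower. The log2 ratios of the repair genes ran from -0.24 to 0.37. XPC, the damage sensor of nucleotide excision repair, had 1071 and 1119 against 1568 and 1650 reads and was 1.30-fold higher (1.23 to 1.37). RRM2B, the ribonucleotide reductase subunit that supplies nucleotides outside S phase, was 1.28-fold higher (1.20 to 1.36), with 845 and 903 against 1268 and 1263 reads. In both genes each shFTO run was above each scramble run, where 81.6% of all tested genes had no overlap of runs either way. DDB2, the ultraviolet damage-binding subunit, had 1129 and 1146 against 1052 and 1138 reads. Among the searched promoter windows of the targets, its window alone held an exact pair. Once scaled for library size it was 1.18-fold lower, a log2 ratio of -0.24 (interval -0.32 to -0.15). POLH, a polymerase that copies past ultraviolet lesions, had 485 and 460 against 504 and 537 reads, with overlapping runs and a ratio 1.03-fold lower (0.942 to 1.13). The median log2 ratio of the 4 was 0.15.

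Metabolic and mitochondrial targets had a ratio above 1 in 6 of 6 cases, as had 50.9% of all tested genes, and 3 passed 1.5-fold higher, against 11.4%. FDXR, the mitochondrial ferredoxin reductase, had 1705 and 1767 reads in scramble and 3473 and 3603 in shFTO and was 1.80-fold higher (1.72 to 1.87). TIGAR, a phosphatase that lowers glycolytic flux, had 338 and 298 against 614 and 624 reads and was 1.72-fold higher (1.56 to 1.89). SPATA18, a regulator of mitochondrial quality control, had 221 and 224 against 453 and 399 reads and was 1.69-fold higher (1.5 to 1.90). In all 3 genes both shFTO runs were above both scramble runs, and runs did not overlap, either way, in 81.6% of all tested genes.

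The other 3 metabolic genes showed smaller differences of the same sign. The sestrins SESN1 and SESN2 restrain mTORC1. SESN1 had 604 and 621 against 744 and 820 reads and was 1.13-fold higher (1.04 to 1.21). SESN2 had 338 and 381 against 466 and 528 reads and was 1.22-fold higher (1.11 to 1.34). TP53I3, a quinone oxidoreductase, had 610 and 635 against 849 and 852 reads and was 1.20-fold higher (1.12 to 1.30). The median log2 ratio of the 6 was 0.52.

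Arrest and death targets were set against each other, without a test. The median log2 ratio was 0.23 for the arrest genes and 0.30 for the death genes, an arrest minus death difference of -0.07. Summed over genes, arrest transcripts went from 446 to 470.1 CPM and death transcripts from 896 to 775, a sum in which PERP, BAX and TNFRSF10B weigh most. Repair transcripts went from 187 to 207 and metabolic ones from 202.5 to 309.5 CPM. Over all 33 the sum was 2028 in scramble and 2064 in shFTO. Such sums follow the abundant genes.

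The order of levels among the targets depended on the group. Levels between genes were compared per kilobase of exon, with lengths from GENCODE release 29. By the mean of both groups, BAX (71.8 CPM per kilobase), GDF15 (71.0), CCNG1 (55.2), TRIAP1 (46.6), PERP (45.9) and CDKN1A (45.6) were highest. Of these 6, the first 3 and PERP had ratios below 1, and TRIAP1 and CDKN1A above 1. Only GDF15, PERP and CDKN1A among them passed 1.5-fold. Of the 6 targets that edgeR called lower, 4 were among these top 6, 5 among the top 6 by scramble level and 3 among the top 6 by shFTO level. MDM4 was the lowest per kilobase, at 0.527 in scramble and 0.764 in shFTO. Across the 33 genes the Spearman correlation of level with log2 ratio was -0.41, and across 13457 tested genes with a length it was -0.14. Genes of 1 library share its depth and are not independent replicates, so these correlations are descriptions.

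**Figure D3:**
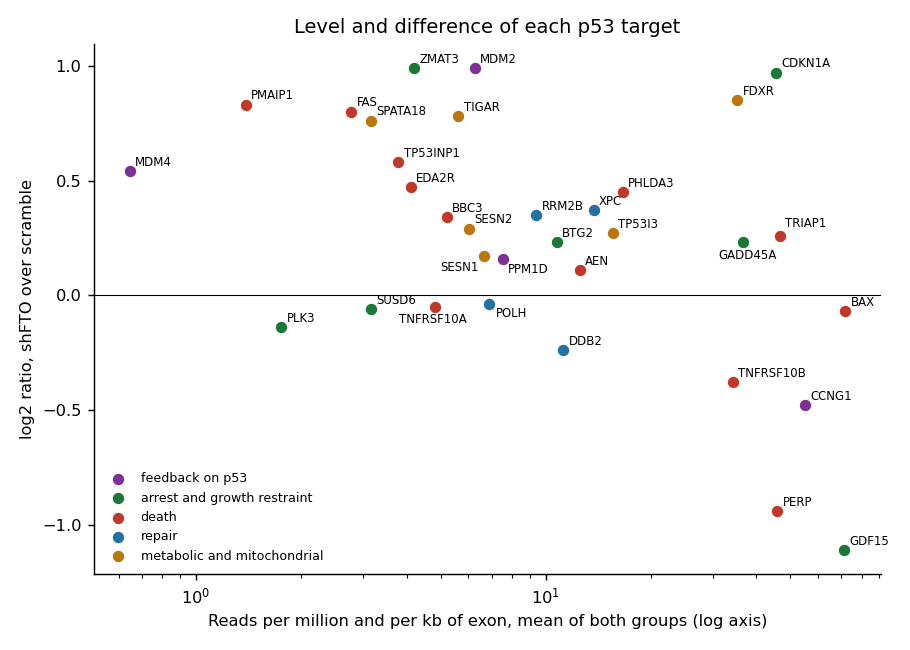
Mean level of each p53 target over both groups in CPM and per kilobase of exon (horizontal, log axis) against its log2 ratio of shFTO over scramble (vertical), coloured by role. GDF15 (71.0, -1.11) and PERP (45.9, -0.94) lie at the lower right, and CDKN1A (45.6, 0.97) at the upper right.

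Genes that act on p53 went both ways. Among 32 tested regulators, 6 were at least 1.5-fold higher (18.8%, against 11.4% of all tested genes) and 2 lower (6.25%, against 13.4%), with a median log2 ratio of 0.11. The damage kinases ATR and PRKDC were 1.75-fold (1.59 to 1.92) and 1.58-fold higher (1.54 to 1.61), while the p53-binding repair factor TP53BP1 was 1.57-fold higher (1.47 to 1.68). The checkpoint kinase CHEK2 was 1.75-fold lower (1.64 to 1.87) and PPP1R13L, an inhibitor of p53, 1.64-fold lower (1.47 to 1.84). The other 3 higher regulators had means under 5 CPM but the largest ratios of the list, whose log2 ratios ran from -0.8 to 2.85. edgeR called 16 of the 32 regulators higher (50%) and 11 lower (34.4%), against 33.2% and 33.4% of all tested genes.

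A further 50 tested genes came from wider compilations of p53 targets. Of them 9 were at least 1.5-fold higher (18%) and 2 lower (4.0%), against 11.4% and 13.4% of all tested genes. Their log2 ratios ran from -1.08 to 1.16 with a median of 0.07. At 2-fold 3 were higher and 1 lower, against 5.18% and 6.19% of all tested genes. edgeR called 21 of the 50 higher (42%) and 18 lower (36%), against 33.2% and 33.4% of all tested genes. KITLG, the ligand of the KIT receptor, was 2.24-fold higher (1.93 to 2.60), and TSKU, a secreted leucine-rich protein, 2.14-fold higher (2.03 to 2.27). The endosomal ferrireductase STEAP3 was 2.08-fold higher (1.96 to 2.21) and INKA2, an inhibitor of the kinase PAK4, 1.84-fold higher (1.64 to 2.07). The cytokine LIF was 2.11-fold lower (1.92 to 2.32), and ALDH4A1, an enzyme of proline breakdown, 1.73-fold lower (1.63 to 1.83).

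Genes that p53 is known to repress through p21 and the DREAM complex showed no difference of 1.5-fold. Of all tested genes 11.4% were higher and 13.4% lower by that much. All 20 genes of the DREAM list were tested, and their log2 ratios ran from -0.44 to 0.32 with a median of -0.02. edgeR called 6 of them higher (30%) and 9 lower (45%), against 33.2% and 33.4% of all tested genes. CDKN1A, the gene of p21, was 1.96-fold higher in the same libraries.

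GDF15 and SESN2 are also activated by ATF4 and CHOP in the integrated stress response. Among 14 tested genes of that response other than the p53 targets, 1 was at least 1.5-fold higher (7.14%, against 11.4% of all tested genes) and 4 lower (28.6%, against 13.4%), with a median log2 ratio of -0.10. The activators themselves, named here after their values were seen, were within 1.5-fold, with log2 ratios of 0.01 for ATF4 and 0.19 for DDIT3, the gene of CHOP. edgeR called 3 of the 14 genes higher (21.4%) and 7 lower (50%), against 33.2% and 33.4% of all tested genes. ATF3 and TRIB3, targets of the activators and picked likewise, were among those called higher, at 0.32 and 0.26. In the same list ASNS and PSAT1 had no call, at 0.02 and 0.01. PHGDH, SHMT2 and CTH, also within 1.5-fold, were called lower, at -0.2, -0.26 and -0.54. VLDLR, a lipoprotein receptor, was 1.84-fold higher (1.60 to 2.13). The transcription factor CEBPB was 1.99-fold lower (1.89 to 2.1), HERPUD1, an endoplasmic reticulum stress protein, 1.82-fold lower (1.72 to 1.92), the cystine transporter SLC7A11 1.76-fold lower (1.56 to 1.97) and the phosphatase subunit PPP1R15A 1.54-fold lower (1.43 to 1.65). Their part in the GDF15 value was not tested.

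**Figure D4:**
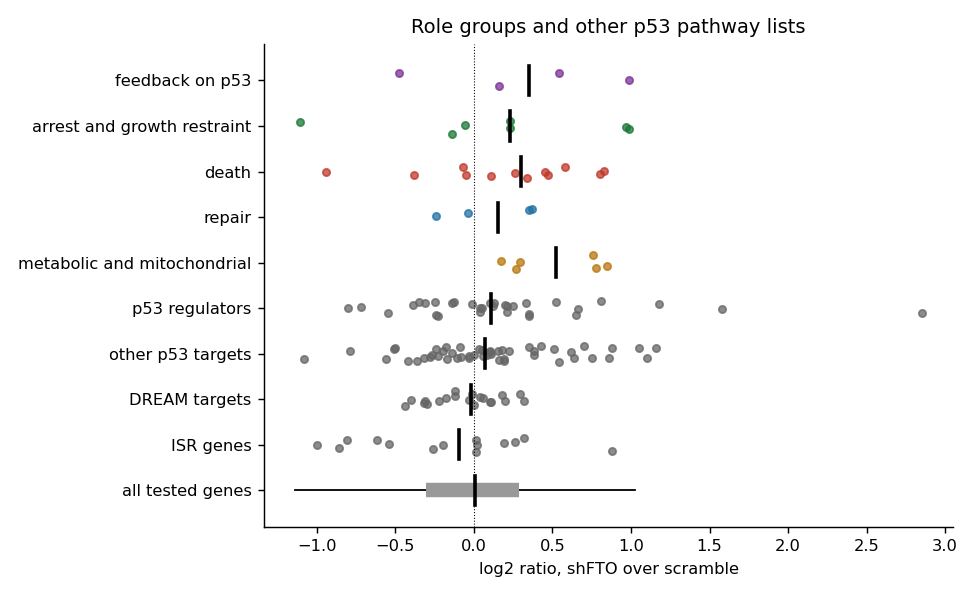
log2 ratio of shFTO over scramble (horizontal axis) for the 5 role groups of p53 targets and 4 other pathway lists, 1 point per tested gene, with a vertical bar at each median. The bottom row gives all 13767 tested genes, with the thick bar from the 25th to the 75th percentile (-0.30 to 0.29) and the thin line from the 5th to the 95th (-1.14 to 1.03), and the metabolic median of 0.52 lies to the right of the thick bar.

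Some targets share exonic sequence with other genes in GENCODE release 29. TIGAR shares 42.6% of its exon length with another gene on the same strand, XPC 23.8% with an antisense gene that had 1 read over the 4 runs and 6.6% with LSM3, which had 4522, and PHLDA3 19.1% with a noncoding gene that had 113. FAS shares 8.9% with ACTA2, which had 2750 reads on the opposite strand and was 1.07-fold higher in shFTO. TNFRSF10A shares 9.0% and 7.6% with genes on the opposite strand that had 111 and 38 reads. Other targets with shared sequence, SESN1 among them (7.1%), share smaller parts. The values of all these targets are uncertain to that extent.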

How the data were processed

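RNA sequencing read counts of 4 libraries, 2 per group, were used as the authors deposited them, as raw counts per Ensembl gene without normalization. The submitters' processing notes name HTSeq 0.6.0, TopHat2 2.1.1 and the build hg19. The annotation release and strand setting are not given in the sources used here. Nothing in the labels says that the libraries of a group came from separate cultures. Groups and replicate numbers come from the titles.

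Symbols were matched by identifier. Reads were scaled by TMM, genes kept by filterByExpr, and the runs of a group summed. Folds are ratios of scaled sums. edgeR 4.0.16 (R 4.3.3, no covariate, two-sided) was fitted to all 13767 kept genes and had 2 residual degrees of freedom. DESeq2 1.42.0 was an alternative. The named genes are all 33 members and, in each other pathway list, up to 4 each way with the largest ratios among those past 1.5-fold with a mean of at least 5 CPM. In the integrated stress response list all 14 tested genes are named, those within 1.5-fold after their values were seen. Members, roles and lists were chosen with earlier results of these data known, so no list has a test. A result on 1 gene of the regulator list is not reported here. Exon lengths and overlaps come from GENCODE release 29 and promoters from RefSeq, both on GRCh38 and not the authors' build.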

Additional observations from a re-analysis of the deposited data

How the results depend on the processing

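Across other scalings, other low count filters and leaving out each run, the number of targets at least 1.5-fold higher was 8 to 12, and the number lower was 2. Under plain library size 12 were higher, when 17.5% of all genes were higher and 9.48% lower by that much. edgeR then called 24 targets higher and 4 lower, and 48.7% and 22.1% of all genes. The higher count was 8 to 9 when each run was left out in turn. Under TMM the counts were 15 and 4 with a log2 limit of 0.32, and 0 and 1 with a 2-fold limit. MDM2, ZMAT3 and CDKN1A passed 2-fold under upper quartile scaling, at log2 ratios of 1.04, 1.04 and 1.02. Under plain library size they were at 1.16, 1.16 and 1.14, FDXR was at 1.01, and PMAIP1 lay at about the limit. GDF15, at -0.94, then fell short of 2-fold lower. Of the 33 ratios, 26 then lay outside their TMM counting intervals. With plain library size in place of TMM the log2 ratio of all genes shifted by 0.17, and the median of the 33 became 0.44, which is 0.26 above the median of all genes, as with the other scalings. PLK3, SUSD6, BAX, TNFRSF10A and POLH, all within 1.5-fold, then changed sign. Leaving out 1 run gave a median of 0.25 to 0.28 and changed the sign of PLK3 and POLH, or of TNFRSF10A. The arrest minus death difference stayed between -0.11 and -0.03. The DESeq2 Wald test called 20 targets higher and 5 lower, and 3256 and 3624 of all 13767 tested genes. Same-numbered runs did not deviate together (correlation 0.002 across genes). The fit with the replicate number as a block again called 23 targets higher and 6 lower, and 4606 and 4610 of all 13767 genes. At under 100 reads per run, as for PMAIP1, counting error alone spans 1.37 to 2.34-fold. No error between cultures can be had from these tables.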
